A study of Mus musculus with 6 samples.

Results

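Loss of the DNA glycosylase NEIL3 was accompanied by called methylation differences in 6 synaptic and neuronal genes that lie away from chromosome 8, the chromosome of Neil3. These genes are Camk2b, Rims2, Rbfox1, Erbb4, Neo1 and Tmem132d. Together they hold 8 of the 230 regions in the authors' deposited table of differentially methylated CG regions, and 8 of the 112 regions outside chromosome 8. The regions were chosen by overlap with these genes, and the genes were picked because a region had been called in them and because of their functions. The levels, differences and q-values below therefore describe the regions and are given with no test.

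The tissue was the CA1 field of the hippocampus, dissected by laser from frozen brain sections of male mice aged 3 to 6 months. One group held 3 wild type C57Bl6 animals and the other 3 Neil3-/- animals on the C57Bl6 background. Both were taken from the home cage with no intervention. The comparison asked how CA1 methylation differs when NEIL3 is missing. CA1 tissue holds pyramidal neurons, interneurons and glia, so a different mix of cells and a different level within the same cells cannot be told apart here. The table gives 1 mean level per group and region, as a fraction from 0 (no methylated CpG) to 1 (all methylated). It gives neither values per animal nor read coverage, so the depth behind each level and the spread between animals are unknown, and the knockout could not be checked in single animals. Which column is which genotype follows from the order of names in the sheet title alone.

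Most CpGs of the mammalian genome are methylated, and sites of low methylation inside a gene often mark CpG-rich sequence, alternative promoters or enhancers. Methylation of a gene body has no fixed relation to how much RNA the gene gives. In hippocampal neurons Camk2b supplies the beta subunit of the calcium/calmodulin-dependent kinase CaMKII, which acts in synaptic plasticity. Rims2 encodes a scaffold of the presynaptic active zone that helps place calcium channels and prime vesicles. Rbfox1 encodes a splicing regulator of neurons. Erbb4 encodes a receptor for neuregulins that is prominent on interneurons. Neo1 encodes neogenin, a receptor for netrins and repulsive guidance molecules. Tmem132d encodes a transmembrane protein of the nervous system.

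The sequence at the start of Camk2b and of Rbfox1 is shown from RefSeq promoter windows (GRCm38.p6), as a CpG-rich and a CpG-poor gene start that no called region reached. The windows run from 250 bases before to 50 bases after an annotated start, 5′ to 3′ on the coding strand, with each CpG in capitals. That of Camk2b lies at chr11:6065699-6065998 on the minus strand. That of the first RefSeq start of Rbfox1 lies at chr16:5884543-5884842 on the plus strand. It ends before 5885355, the first Rbfox1 start that the authors list, from which the place of the region in the gene is given below.
Camk2b promoter: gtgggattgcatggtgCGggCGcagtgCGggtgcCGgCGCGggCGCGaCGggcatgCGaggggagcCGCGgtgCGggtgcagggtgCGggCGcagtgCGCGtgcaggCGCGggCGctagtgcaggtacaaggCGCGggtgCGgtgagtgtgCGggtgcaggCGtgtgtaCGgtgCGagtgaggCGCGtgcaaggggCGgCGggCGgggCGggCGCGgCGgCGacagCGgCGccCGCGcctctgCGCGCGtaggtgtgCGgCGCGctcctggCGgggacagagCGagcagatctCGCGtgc
Rbfox1 promoter: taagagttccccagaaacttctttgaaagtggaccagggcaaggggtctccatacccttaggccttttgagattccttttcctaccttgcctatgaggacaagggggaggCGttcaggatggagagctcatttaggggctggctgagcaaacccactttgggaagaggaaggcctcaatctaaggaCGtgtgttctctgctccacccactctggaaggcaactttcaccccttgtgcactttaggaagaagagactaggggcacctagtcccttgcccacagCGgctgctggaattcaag
The Camk2b window holds 51 CpGs, more than 99.3% of the 32851 windows in the table. The Rbfox1 window holds 3, more than 23.3% of them. The letters CG, which read the same on both strands, occur in 94.6% of all windows, with a median of 7. No called region overlapped either window: the nearest one of the same gene lay 57.4 kb away in Camk2b and 236.9 kb away in Rbfox1. The table holds windows for 4 of the 6 genes, 5 in all, and none of the 5 overlapped a called region. Such an overlap is rare for any gene start: 8 of the 230 called regions shared bases with one of the 32851 windows. Nothing is therefore read from its absence in these 5. Neo1 had 54 CpGs in its window, Erbb4 had 17, and the other Rbfox1 window had 7.

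Of the 8 regions, 7 had more methylation in the knockout and 1, in Erbb4, had less. Of all 230 called regions, 29.1% were higher in the knockout by the difference in the authors' deposited table, and outside chromosome 8 the share was 54.5%. Since the genes were taken from this contrast, nothing is read from that distance. Over the 8 regions, the authors' wild type means had a median of 0.156 and their knockout means one of 0.719. For the 104 other regions outside chromosome 8, of which 54 were higher in the knockout, these medians were 0.391 (wild type) and 0.569 (knockout). Among regions higher in the knockout only, the medians lay close together. They were 0.133 (wild type) and 0.746 (knockout) in the 7 regions here, and 0.168 and 0.702 in the 54 others.

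**Figure D1:**
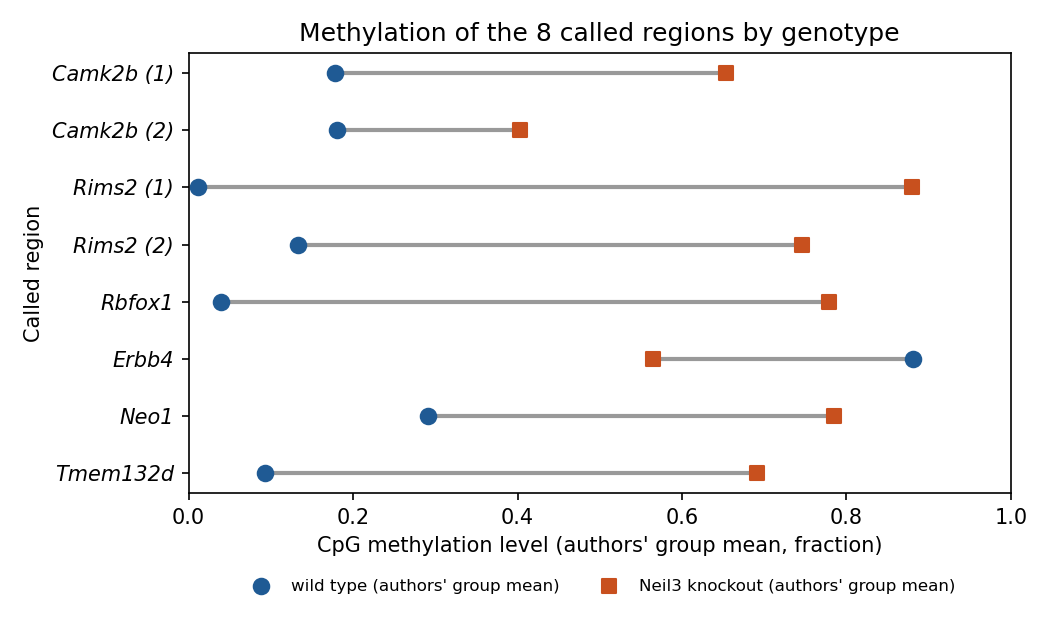
Authors' mean CpG methylation level (x axis, fraction) of each called region (y axis) in wild type (circles) and Neil3 knockout (squares); a line joins the means of 1 region, and no error is drawn because no values per animal are given. The knockout mean lies to the right in 7 regions, by the most in the first Rims2 region (0.0118 to 0.880), and to the left in Erbb4 (0.881 to 0.565).

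On the presynaptic side, Rims2 (chromosome 15, 39198261 to 39684372, plus strand) held 2 regions. The first, at 39244206 to 39244894, had a wild type mean of 0.0118 and a knockout mean of 0.880 by the authors. It was almost free of methylation in one genotype and almost fully methylated in the other. Its difference of 0.868 was the largest in size among the 112 regions outside chromosome 8 in the authors' deposited table, and its wild type mean was the second lowest there. The second Rims2 region began 1828 bp further on, at 39246722 to 39247057, with authors' means of 0.133 and 0.746 (difference 0.614, q = 7.00e-16 in the authors' deposited table). The pair thus showed the same direction but differed in makeup: the first had 22 CpGs in 688 bp and the second 37 in 335 bp. With each region weighted by its CpGs, the pair averaged 0.0877 in wild type and 0.796 in the knockout.

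In the kinase gene Camk2b (chromosome 11, 5969644 to 6066362, minus strand) the regions at 6006638 to 6007141 and 6007141 to 6008349 share a border. Only 2 of the 93 neighbouring pairs outside chromosome 8 touch in this way. Wild type means were nearly equal, 0.178 and 0.180 by the authors, while knockout means were 0.653 and 0.403. The means of the 2 regions, 1711 bp together, thus differed little in wild type and more in the knockout, with no levels given within either region. Its region of 503 bp had 58 CpGs, and its q-value of 1.61e-32 was the 7th smallest of the 112 outside chromosome 8 in the authors' deposited table. The region of 1208 bp had 127 CpGs, the third highest number outside chromosome 8, and q = 1.27e-09 in the authors' deposited table. Here the deposited difference of 0.291 exceeded the 0.223 between the authors' 2 means. In the other 7 regions both agreed within 0.001. The measures differed by more than 0.001 in 14 of the 112 regions outside chromosome 8, and in 17 of all 230. On chromosome Y, the region at 90761688 to 90762378 counts as lower by its deposited difference of -0.348, though its means were 0.324 (wild type) and 0.541 (knockout). Weighted by CpGs, the authors' means of the joint Camk2b stretch went from 0.179 to 0.482.

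The region of the splicing regulator Rbfox1 (chromosome 16, 5885355 to 7411526, plus strand) lay at 6121713 to 6122133. It averaged 0.0389 in wild type animals and 0.779 in knockouts by the authors, a difference of 0.740 in the authors' deposited table. Only 6 regions outside chromosome 8 had a larger gain. It rests on 12 CpGs, the fewest of the 8 regions, where the list starts at 10. At 1526 kb this is the longest of the 36 genes that the authors list, and it carried this 1 region.

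Among the cell surface genes, Erbb4 (chromosome 1, 68032186 to 69108059, minus strand) was the exception in direction. At 68625056 to 68625300 wild type animals averaged 0.881 and knockouts 0.565 by the authors, a difference of -0.317 (q = 1.58e-09 in the authors' deposited table). It was the shortest of the 8 regions, 244 bp, and the densest, with 33 CpGs. It was also the only one that was mostly methylated in wild type.

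Neo1 (chromosome 9, 58874687 to 59036441, minus strand) carried a region at 58951286 to 58951603. Its 13 CpGs had authors' means of 0.291 and 0.785 (difference 0.494, q = 4.60e-06 in the authors' deposited table). No other region with a gain had as high a wild type mean among the 7. Tmem132d (chromosome 5, 127781630 to 128433077, minus strand) went from 0.0924 in the authors' wild type mean to 0.692 in their knockout mean over 17 CpGs at 127875154 to 127875478. Its q-value of 0.0165 in the authors' deposited table was the largest of the 8, ranked 102nd from the smallest of 112, although its difference of 0.599 ranked 22nd in size.

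**Figure D2:**
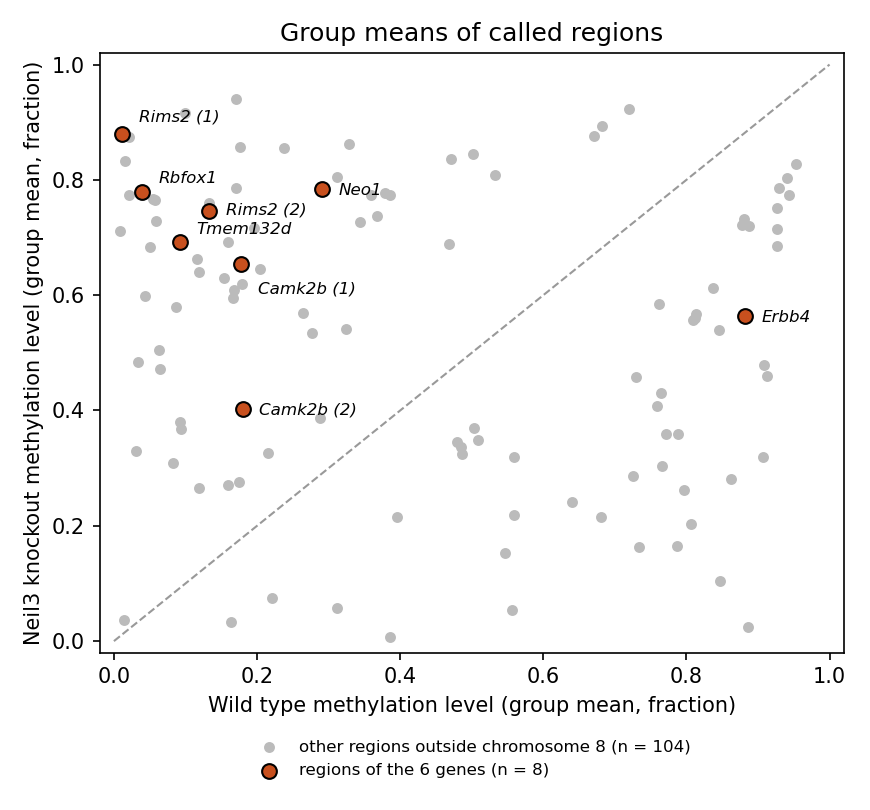
Authors' mean methylation level in the knockout (y axis, fraction) against wild type (x axis, fraction) for the 8 regions of the 6 genes (labelled) and the 104 other called regions outside chromosome 8 (grey); the dashed line marks equal levels. Of the 8, 5 lie at the upper left with wild type means under 0.2 and knockout means over 0.6, among grey points of the same kind.

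The 6 genes thus mostly showed 1 form of difference, from low methylation in wild type to high methylation in the knockout. A wild type mean under 0.2 together with a knockout mean over 0.6 was found in 5 of the 8 regions: the first Camk2b region, both Rims2 regions, Rbfox1 and Tmem132d. The same held for 22.3% of the regions outside chromosome 8, and the 5 are 5 of those 25. That share counts regions lower in the knockout, which cannot meet both limits. Among regions higher in the knockout it was 5 of the 7 here and 20 of the 54 others outside chromosome 8 (37.0%). Both limits were set with the values known. Just outside them stood the second Camk2b region, with a knockout mean of 0.403, and Neo1, with a wild type mean of 0.291.

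None of the 8 regions lay at a listed transcription start. The nearest start of the same gene was 6.19 to 400.3 kb from the region's edge, with a median of 47.1 kb. Beside them stood the 20 other listed genes outside chromosome 8 that hold a region within their listed bounds. There 12 of 20 gene and region pairs were within 2 kb of a start, and the median distance was 0.726 kb. The chromosome 13 region at 119487604 to 119488272 counts for both Tmem267 (0 bp) and 3110070M22Rik (111 bp). Immp2l, Snd1 and Mid1 are longer than Camk2b and overlap a region by RefSeq bounds, but are not among the 20 genes. Their distances to a start were not measured. The 6 genes are also longer, with a median of 568.8 kb against 35.9 kb for all other listed genes, those on chromosome 8 included. Other listed genes outside chromosome 8 that are longer than Camk2b mostly had distant regions too. Their distances were 25446 bp in Eml1, 63718 bp in Veph1, 73578 bp in Aoah, 76951 bp in Lrrc69 and 194291 bp in Tex11, but 0 in Tmem267. The part of gene length in these distances was not tested.

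In Camk2b both regions lay upstream of an internal start at 6000448, by 6.19 and 6.69 kb, and 58.0 to 59.2 kb into the gene. The Rims2 pair lay 45.9 and 48.5 kb downstream of the first start and before the next internal one at 39391800. In Rbfox1 the region was 236.4 kb into the gene and 227.0 kb before the internal start at 6349138. The Erbb4 region lay in the middle of the gene, 482.8 kb (44.9% of its length) from the first start. In Neo1 it lay at 52.4% of the length, 30.5 kb downstream of an internal start at 58982108. Tmem132d was the only gene with its region near the far end, at 85.6% of the length. Each region overlapped its own gene and no other gene of the RefSeq annotation (GRCm38.p6). Exons and introns were not analysed here.

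**Figure D3:**
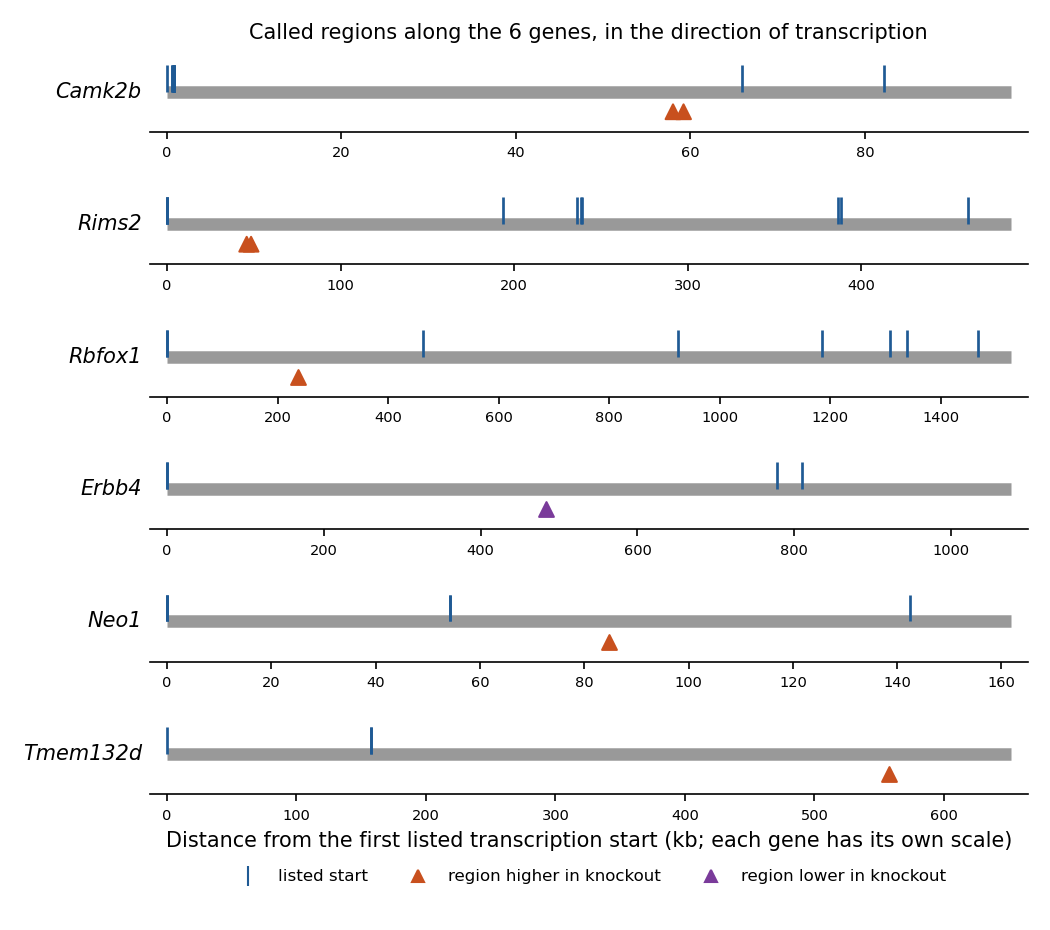
The 6 genes drawn from the first listed transcription start in the direction of transcription (x axis, kb, a scale for each gene), with listed starts as ticks and called regions as triangles, orange where the knockout mean is higher and purple where it is lower. No triangle sits on a tick, the closest being the Camk2b pair, 6.19 kb from an internal start.

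CpG density varied among the 8 regions. It was 10.5 to 13.5 CpGs per 100 bp in both Camk2b regions, the second Rims2 region and Erbb4. In the first Rims2 region, Rbfox1, Neo1 and Tmem132d it was 2.86 to 5.25. The median outside chromosome 8 was 8.83, between these ranges. Rbfox1 and the first Rims2 region, with the largest gains of the 8, ranked 108th and 103rd of 112 in density. Camk2b and Rims2 give 2 each of the 7 higher regions. Across these 7, Spearman's rho between the number of CpGs and the size of the difference was -0.57 (Pearson's r -0.75). Across the 61 higher regions outside chromosome 8, the 7 included, it was -0.62 (r -0.43), and across the 54 others -0.62 (r -0.42). These points share the 6 animals and the authors' calling step, whose rules are unknown, and the correlations are a description only.

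The number of CpGs is the authors' and may not count each CpG once. Within 8 regions of the list that share bases with a RefSeq promoter window, 1966 bp in all, the reference holds 111 CpGs where the authors' density would give 188, and the reference had fewer in all 8. Whether the 2 strands were counted separately was not tested, so densities here serve for ranks within the list and not for comparison with the promoter windows.

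**Figure D4:**
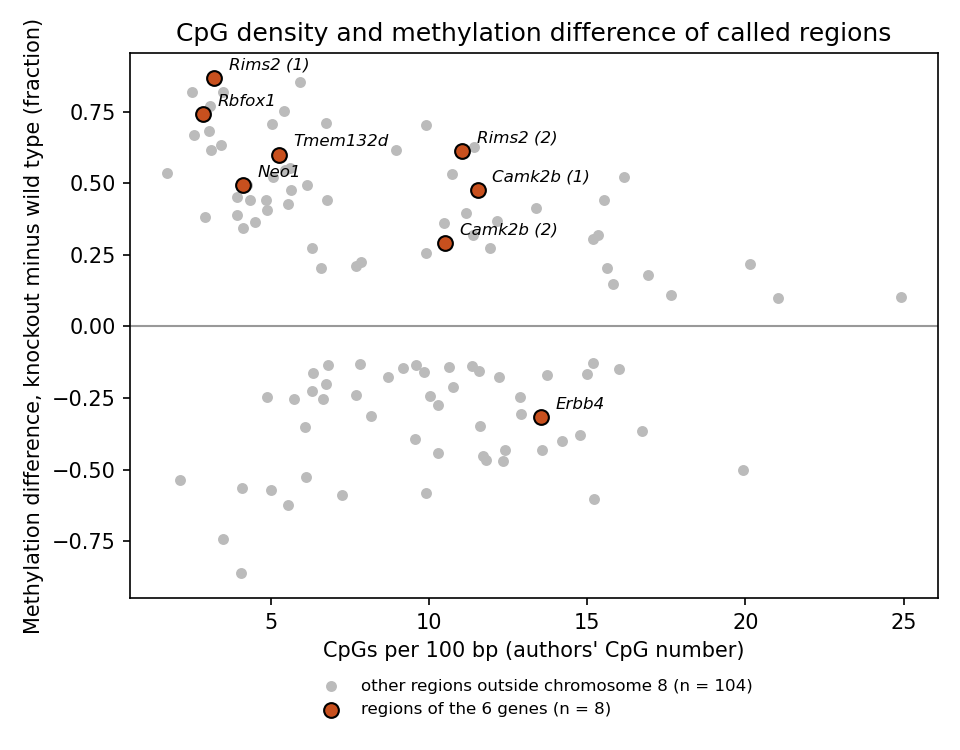
Methylation difference of called regions (y axis, knockout minus wild type as deposited, fraction) against CpGs per 100 bp by the authors' CpG number (x axis), for the 8 regions of the 6 genes (labelled) and the 104 others outside chromosome 8 (grey). The largest gains, Rims2 (1) and Rbfox1, stand at low density, 3.20 and 2.86, and Erbb4 stands below the zero line at 13.5.

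Genes related to these 6 held no called region. The lists were the other CaM kinases and their inhibitors (12 genes), active zone and vesicle release proteins (20), neuronal splicing regulators (14), ErbB receptors and neuregulins (7), netrins, repulsive guidance molecules and their receptors (14) and the Tmem132 family (4). Of these 71 genes 0 overlapped a region, also with bounds widened by 5 kb on each side. This included Camk2a, the alpha subunit of CaMKII, Rims1, the paralogue of Rims2, Rbfox2 and Rbfox3, the neuregulin genes Nrg1 and Nrg3, and Dcc, the netrin receptor related to neogenin. A region is rare in any gene: 0.139% of the 49603 annotated genes overlapped one, and 0.66% of the 2423 protein-coding genes outside chromosome 8 that are at least as long as Camk2b, the shortest of the 6. A count of 0 among 71, of which 37 are at least that long, is near that background, and nothing is read from it. Of the 16 long genes that did overlap one, 6 are the genes described here. That was fixed in advance, since the 6 were picked for holding a region and the shortest of them set the length limit.

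No other region was called close to these genes. The nearest one outside Rbfox1 lay 3.73 Mb away, where the authors' means were 0.216 (wild type) and 0.326 (knockout). For the other 5 genes the nearest region on the same chromosome was 34.3 to 82.8 Mb away. The regions of these 6 genes were therefore single calls or pairs within 2 kb, and not parts of longer runs of called regions.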

How the data were processed

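DNA was sonicated to about 250 bp, bisulfite converted and sequenced, per the labels' protocols, although the labels name RNA as the molecule. The submitters' processing notes name BSMAP, an aligner for bisulfite reads, and GRCm38 (mm10). The calling and filtering of regions, and the coverage needed, were steps not given in the sources used here. Each region has a methylation level per group as a fraction, a difference, a q-value and a number of CpGs, all deposited by the authors, and pooled over animals. The deposited genes table gives bounds, starts and GC content in percent. Positions are printed as deposited: in both regions where a start could be read in a promoter window, the CpG began 1 base after it.

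Regions overlapping a gene's listed bounds by at least 1 bp were counted with pandas 2.3.3 (Python 3.11.15), and the overlap code was tested on simulated data. Differences are knockout minus wild type. Strand was taken from which bound holds a listed start. Except on Y, RefSeq genes below 3 Mb (scaffold positions) were dropped, leaving 49603. A planned permutation test over animals could not be run, since values per animal are not in the tables used here. All regions in the 6 genes are named. Genes, related lists and limits were chosen with earlier results of these data known.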

Additional observations from a re-analysis of the deposited data

How the results depend on the processing

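All 8 regions were found with RefSeq bounds, with bounds widened by 5 kb and with the whole region required inside the gene. Requiring a difference of at least 0.3 left 7 regions, 6 of them higher in the knockout (without the second Camk2b region). A q-value of at most 0.001 also left 7, with 6 higher (without Tmem132d), and at least 15 CpGs left 6 (without Rbfox1 and Neo1). Taking the difference of the authors' means moved the second Camk2b region from 0.291 to 0.223, and 7 regions stayed higher. Measured to the middle of the region, no distance to a start moved by over 1.5 times. Density percentiles fell when counted among regions outside chromosome 8 in place of all regions, from 24.8 to 8.04 for the first Rims2 region, 18.7 to 3.57 for Rbfox1, 35.7 to 16.1 for Neo1 and 48.3 to 25.0 for Tmem132d. Leaving out single animals was not run, since levels are given per group. No paired analysis was possible because the values are group means. With depth unknown, no level could be given an interval.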

Other observations

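Outside chromosome 8, 25 regions had an authors' mean under 0.2 in wild type and over 0.6 in the knockout, and 20 of them lay outside the 6 genes. Of these 20, chromosome X held 5 and Y held 6, whereas all regions of the 6 genes are autosomal. Among the 9 on autosomes 4 lay in an annotated gene, here named after their values had been seen. Immp2l, which encodes a mitochondrial inner membrane peptidase subunit, had authors' means of 0.0988 and 0.916 at 41305466 to 41306183 on chromosome 12. Pik3c3, which encodes the class III phosphatidylinositol 3-kinase of autophagy and endosomes, had authors' means of 0.119 and 0.640 at 30267091 to 30267462 on chromosome 18. The other two were the predicted gene Gm17514 and the pseudogene Vmn2r-ps98, both on chromosome 13.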
